A study of Mus musculus with 2 samples.

Results

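The ankyrins (Ank1, Ank2, Ank3) and the spectrins (Sptan1, Sptb, Sptbn1) expressed in gastrocnemius, the large muscle of the calf, were followed as transcripts. The members were taken by gene name, all 6 had counts, and they stand among 17859 annotated mouse genes with counts. Both libraries came from B6CASTF1/J male mice at 4 days of age, with no treatment, mutation or other condition in the labels, and each was made from 2 µg of total RNA and sequenced as long reads. Replicates 1 and 2 have separate biosample entries but share a donor entry, so the labels do not settle whether they are 2 mice, and the spread between them may be technical. A long read can hold the whole exon chain of an RNA molecule, and a count is the number of reads that the authors assigned to a transcript model.

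Spectrins are flexible rods built from an α and a β chain, and they form a lattice under the plasma membrane. Ankyrins tie this lattice to ion channels, pumps and adhesion proteins through a long array of ankyrin repeats that is encoded by the first part of each gene. Skeletal muscle also makes small ankyrin 1, a short product of Ank1 that starts from an internal promoter. It has no ankyrin repeats and sits in the membrane of the sarcoplasmic reticulum, where it helps tie that membrane to the myofibrils. Muscle-specific inserts are known in Ank3 as well.

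The sequences below are coding parts of small ankyrin 1 that differ between its spliced forms, printed from GENCODE M21 transcripts on mm10, plus strand, 5′ to 3′. Capitals mark the 75 bases between the alternative donors in the first and the stop codon in the others.
Ank1 alternative donor exon (chr8:23141164-23141304): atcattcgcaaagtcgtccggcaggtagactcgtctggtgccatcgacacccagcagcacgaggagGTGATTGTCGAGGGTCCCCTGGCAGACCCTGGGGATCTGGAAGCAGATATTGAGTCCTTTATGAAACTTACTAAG
Ank1 125-base exon up to its stop codon (chr8:23141596-23141694): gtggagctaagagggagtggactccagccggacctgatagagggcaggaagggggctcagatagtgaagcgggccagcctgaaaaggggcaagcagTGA
Ank1 last exon up to its stop codon when the 125-base exon is skipped (chr8:23148281-23148307): gatcacacctcaacacccaaacccTGA

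Ank1 (ENSMUSG00000031543.18, chr8:22974844-23150497) was the highest member and was read mostly as small ankyrin 1. Its 334 counts in replicate 1 and 370 in replicate 2 were 55.9% and 65.3% of all counts on the 6 genes. Here and below, an annotated first exon is one whose donor no annotated internal exon of the gene uses. Counts on transcripts that open at a shared donor, such as Ank1-211, were left undetermined. Every count that began at an annotated first exon so defined used the small first exon, 273 of 273 in replicate 1 and 292 of 292 in replicate 2. The exact Clopper-Pearson 95% intervals are 98.7 to 100% and 98.7 to 100%; such intervals cover counting error only, here and below. This first exon lies behind 41 of the 46 exons of the longest annotated chain, Ank1-216. The other 3 annotated first exons, which open the long ankyrin-repeat forms, had 0 counts in both libraries.

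Counts that began upstream of the small first exon numbered 2 of 334 in replicate 1 (0.599%, interval 0.0726 to 2.15%) and 1 of 370 in replicate 2 (0.270%, interval 0.00684 to 1.497%). In replicate 1 these were a 43-exon model and a 7-exon model, and in replicate 2 a 5-exon model. The 43-exon read in replicate 1 is thus the only one with more than a few exons of the long ankyrin 1. The remaining counts, 59 in replicate 1 and 77 in replicate 2, began at or downstream of the start of the small first exon without using its donor and were left undetermined. Over all counts of the gene, the small first exon was held by 81.7% in replicate 1 and 78.9% in replicate 2, a mean of 80.3 ± 1.99% (SD, n = 2 libraries). Long molecules are in general captured less often in long-read libraries, and the shares of reads are not corrected for this.

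Small ankyrin 1 was read in 4 spliced forms, which took 270 of the 273 counts from the small first exon in replicate 1 and 289 of the 292 in replicate 2; the other 3 in each library were on other exon chains. After the first exon and an 84-base exon, the next exon ended at either of 2 donors, giving a 66-base or a 141-base exon that differ by the 75 bases capitalised above. A 125-base exon (chr8:23141596-23141720) was then included or skipped. Ank1-208, with the 66-base and the 125-base exon, had 230 of these 270 counts in replicate 1 and 249 of 289 in replicate 2, 85.7 ± 0.689% (mean ± SD, n = 2). Its reading frame holds 155 codons and stops inside the 125-base exon.

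The second form joined the 141-base exon to the 125-base exon and is not an annotated combination. It had 29 counts in replicate 1 and 23 in replicate 2, 9.35 ± 1.97%, and the same stop codon gives it a frame of 180 codons. Ank1-201, with the 141-base exon and no 125-base exon, had 10 and 15 counts in replicates 1 and 2, 4.45 ± 1.05%. Its frame of 156 codons ends in the first 27 bases of the last exon. The rarest form, the 66-base exon with the 125-base exon skipped, had 1 count in replicate 1 and 2 in replicate 2 and a frame of 131 codons. The annotated form that joins the 84-base exon straight to the last exon, Ank1-217, had 0 counts in each library.

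**Figure D1:**
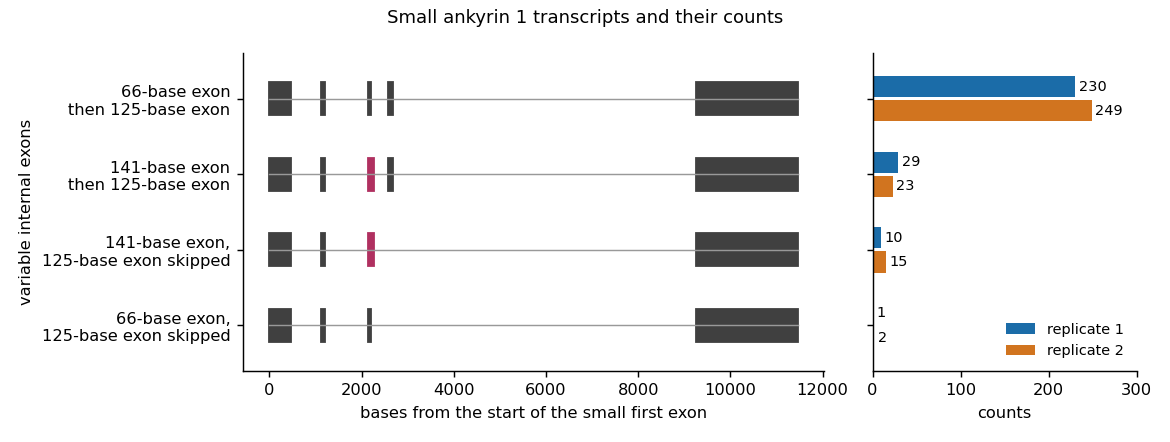
Exon maps of the 4 small ankyrin 1 forms (left, bases from the start of the small first exon, exons as boxes, the 141-base exon in red) and their counts in replicate 1 and replicate 2 (right). The form with the 66-base and the 125-base exon has 230 counts in replicate 1 and 249 in replicate 2, and the other 3 forms have at most 29.

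The choice of donor and the skipping of the next exon went together in the same molecules. Among models with the 141-base exon, the 125-base exon was skipped in 11 of 47 counts in replicate 1 (23.4%, interval 12.3 to 38.0%) and in 18 of 46 in replicate 2 (39.1%, interval 25.1 to 54.6%). Among models with the 66-base exon it was skipped in 1 of 243 counts in replicate 1 (0.412%, interval 0.0104 to 2.27%) and in 2 of 280 in replicate 2 (0.714%, interval 0.0866 to 2.56%). The intervals of the donor choices do not overlap in either library. Over all informative models, whatever their start, the 141-base exon took 16.04% (replicate 1) and 14.1% (replicate 2) of the counts, and the 125-base exon was included in 95.6% and 93.7%.

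Other Ank1 models were few. Ank1-211, a retained-intron model without a coding frame that begins just upstream of the 84-base exon, had 5 counts in replicate 1 and 19 in replicate 2. Unspliced models had 28 and 31 counts, 8.38% in each library, of which 22 in replicate 1 and 31 in replicate 2 reached from the last intron into the last exon and 6 in replicate 1 lay within the last exon. The last intron, 6560 bases long, holds the microRNA gene Mir486 (chr8:23142555-23142682), which had no model of its own in either library. A 112-base exon of that intron (chr8:23142949-23143060) outside GENCODE M21 was included once in each library, in 1 of 305 and 1 of 337 informative counts.

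The 6 gene levels fell into an order with Ank1 far above the others. Ank1 averaged 347 ± 18.4 CPM (counts per 1000000 counts on annotated genes; mean ± SD, n = 2), with 334.4 CPM in replicate 1 and 360.5 in replicate 2, and was rank 335 of all genes by mean CPM. Sptb, the β chain of erythrocytes and muscle, followed at 83.1 and 54.6 CPM in replicates 1 and 2. Sptan1, the widely expressed α chain, had 73.1 and 49.7 CPM, and Sptbn1, the widely expressed β chain, 64.1 and 46.8 CPM. Ank2, the ankyrin of cardiac and nerve membranes, had 24.0 and 31.2 CPM, and Ank3, the ankyrin of axon initial segments and nodes, 20.0 and 9.74 CPM. The 3 spectrins overlapped one another, since each one's lower library lay below the others' higher one, and Ank2 lay above Ank3 in both libraries. CPM of long reads counts molecules and is not divided by length, but the longest annotated transcripts run from 8018 bases in Sptan1 to 14305 bases in Ank2 against 1740 bases in Ank1-208, and the part of transcript length in the level differences was not tested.

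**Figure D2:**
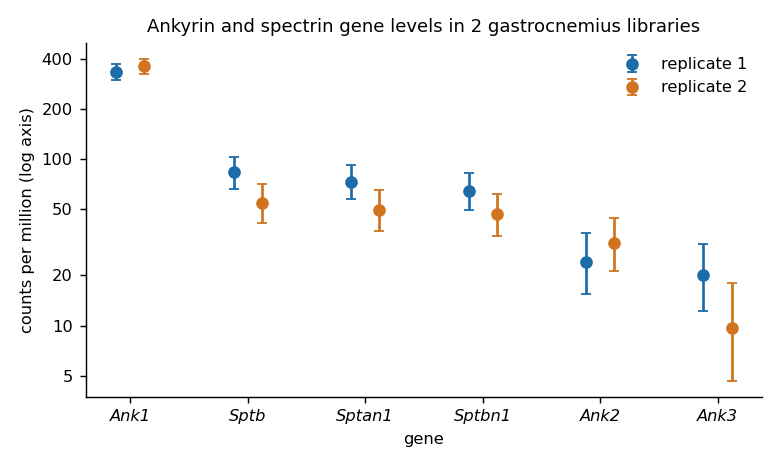
CPM of annotated gene counts (log axis) for the 6 genes, ordered by mean level, in replicate 1 and replicate 2, with exact Poisson 95% intervals as bars. Ank1 lies at 334.4 and 360.5, the 3 spectrins between 46.8 and 83.1, and Ank2 and Ank3 between 9.74 and 31.2.

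Between the libraries no member passed Fisher's exact test (two-sided, Benjamini-Hochberg adjustment over 11027 genes), against 9.74% of all genes tested. This test holds counting error only and compares 2 libraries, not 2 conditions. Before adjustment 2 of the 6 were under 0.05. Sptb was higher in replicate 1 by 0.60 on the log2 scale (83 counts, against 56 in replicate 2; exact p = 0.0172, adjusted p = 0.121). With only Known, NIC and NNC models, the authors' classes other than incomplete and unspliced ones, its log2 ratio was 1.47 (adjusted p = 0.131, Fisher's exact test; 0.0781 to 1 over all alternatives). Sptan1 was higher in replicate 1 by 0.55 (73 counts, against 51 in replicate 2; exact p = 0.0385, adjusted p = 0.203). Sptbn1 (log2 ratio 0.45, interval -0.11 to 1.03) and Ank3 (1.00, interval -0.12 to 2.30) were also on the higher side in replicate 1, while Ank1 (-0.11, interval -0.33 to 0.11) and Ank2 (-0.37, interval -1.20 to 0.43) were on the lower side.

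The whole libraries set the frame for these values. Replicate 1 held 1066347 counts and replicate 2 held 1100253, of which 93.7% and 93.3% fell on annotated genes. The 6 muscle fibre markers were counted in both libraries, with a summed level of 104957 CPM in replicate 1 and 124454 in replicate 2. Of 9 erythroid markers, 6 had counts, and the red cell anion exchanger gene Slc4a1 was at 0 in both libraries. The erythroid list summed to 258 CPM in replicate 1 and 402 in replicate 2. Of its 5 genes tested, 2 were called lower and 0 higher in replicate 1, against 5.25% lower and 4.49% higher over all genes tested. The neuron list summed to 9.01 and 12.7 CPM with Snap25 at 0. Schwann cell markers summed to 1457 and 3483 CPM, endothelial markers to 387 and 480, the 4 epidermal markers to 4.01 and 813, and the 3 fibroblast markers to 34265 and 22150. Ank2, Ank3, Sptan1 and Sptbn1 are also used by nerve, endothelium and other cells, and the part of those cells in the values was not tested. In such whole-tissue RNA, fewer cells of a type and less RNA per cell cannot be told apart.

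Ank1 reads reached an annotated first exon far more often than reads of the other members. Counts whose model began at an annotated first exon made up 81.7% of Ank1 in replicate 1 and 78.9% in replicate 2. In Sptbn1 they were 29.7% and 25%, in Sptan1 21.9% and 17.6%, and in Sptb 20.5% and 8.93%. In Ank2 they were 25% and 12.5%, and in Ank3 4 of 20 and 2 of 10 counts. Over the genes whose longest annotated transcript has 8000 to 12000 bases and that had at least 20 counts, the median share was 54.6% in replicate 1 (214 genes) and 60.5% in replicate 2 (180 genes), with lower quartiles of 20.0% and 13.0%. The median over genes of all lengths was 87.7% in replicate 1 and 87.3% in replicate 2.

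The spectrin reads were mostly chains that lacked 5′ exons. Models classed as 5′-truncated parts of an annotated chain held 65.8% of Sptan1 counts in replicate 1 and 66.7% in replicate 2, 46.9% and 56.3% of Sptbn1 counts, and 55.4% and 39.3% of Sptb counts. In Ank1 that class held 5.69% and 5.14%. Reads of the whole chain were nevertheless present. Sptb-201, the 36-exon β chain, had 15 counts in replicate 1 and 3 in replicate 2, and Sptbn1-201, also of 36 exons, had 15 and 6. No annotated Sptan1 model led its gene, and a 54-exon chain with a splice site outside the annotation had 4 counts in each library. Sptb differed in its unspliced share, since models lying wholly in its 2905-base last exon had 15 of its 83 counts in replicate 1 and 23 of its 56 in replicate 2.

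**Figure D3:**
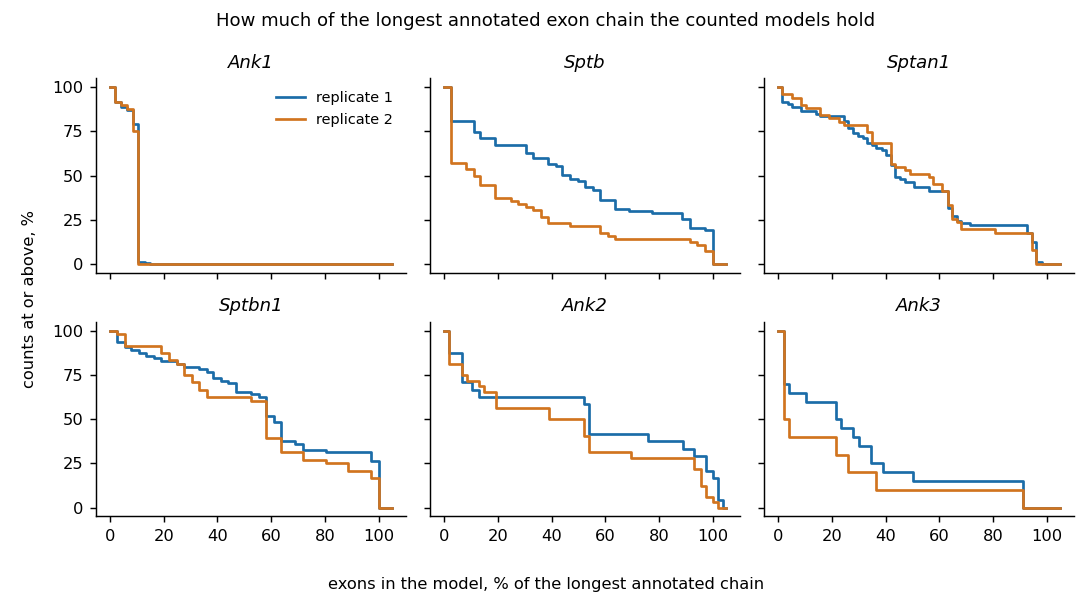
Share of each gene's counts (vertical axis, %) on models that hold at least a given part of the exons of the longest annotated chain (horizontal axis, %), in replicate 1 and replicate 2. Ank1 falls to near 0 at 5 of 46 exons, while the spectrins fall over the whole chain and Ank2 falls in steps. Sptb lies lower in replicate 2 than in replicate 1.

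Of the other 5 genes, only Ank3 has a first exon with a donor of its own past the midpoint of its longest annotated chain. Some annotated transcripts of few exons do end in the last exon, such as Ank2-209 and Sptb-203, each of 3 exons. They open at donors shared with internal exons, where a start cannot be told from a truncated read, and were not counted. For Ank2, Sptan1, Sptb and Sptbn1 the rule that marks the small form of Ank1 could thus only return 0 short counts. It cannot show whether those genes have short forms. Counts at annotated first exons were 6 and 4 for Ank2 and 4 and 2 for Ank3 in replicates 1 and 2. They were 16 and 9 for Sptan1, 17 and 5 for Sptb, and 19 and 12 for Sptbn1. Rare use of the downstream Ank3 first exon was not detectable at this depth. Of 9 Ank3 first exons with a donor of their own, the sole one placed that far downstream (35 of 46 exons upstream, chr10:69989935-69992475) had 0 counts. An Ank3 first exon behind 22 of the 46 exons (chr10:69925495-69926191), just short of the midpoint, had 1 count in replicate 1 and 0 in replicate 2. Ank2-201, whose 25-exon chain starts at chr3:126998324-126998462 behind 21 of the 46 exons and so leaves out most of the ankyrin-repeat part, had 2 counts in each library. A chain of 24 exons that begins within the bounds of the same first exon had 1 count in replicate 1 and 3 in replicate 2. It does not use the donor of that exon and was classed as an incomplete chain in both libraries, so it is not counted as a use of this start. No member could be tested for first exon use between the libraries, because Ank1 used a single first exon and the others had fewer than 20 such counts; 0.216% of the 3237 first exons tested were called.

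Ank2 and Ank3 are known for giant exons that neurons include and that encode a long unstructured tail region. No count overlapped the 6198-base exon of Ank2 (chr3:126941610-126947807). It was spliced over by 15 counts in replicate 1 and 18 in replicate 2, so that 0 of 33 allows a share of up to 9.09%. In Ank3 the giant exons of 7674 and 2550 bases (chr10:69986089-69993762 and chr10:69986083-69988632) were spliced over by 9 and 2 counts and overlapped by none, which allows up to 27.3%. A molecule that holds such an exon is longer and would be captured less often, which these limits do not cover.

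In Ank3, exons of 87, 84 and 57 bases near the carboxy end were read as a unit. Together they have 228 bases, or 76 codons, and keep the frame. The 84-base and 57-base exons were both included in 7 of 12 informative counts in replicate 1 (58.3%, interval 27.7 to 84.8%) and in 0 of 2 in replicate 2, and no count held 1 without the other. All 3 were included or skipped together in the counts that covered them, 5 with and 5 without in replicate 1 and 0 with and 2 without in replicate 2. Their sequences read as follows on the plus strand in GENCODE M21 on mm10, with all letters coding and in capitals.
Ank3 87-base exon (chr10:70008778-70008864): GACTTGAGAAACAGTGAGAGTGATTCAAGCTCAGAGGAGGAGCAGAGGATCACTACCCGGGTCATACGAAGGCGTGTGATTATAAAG
Ank3 84-base exon (chr10:70013972-70014055): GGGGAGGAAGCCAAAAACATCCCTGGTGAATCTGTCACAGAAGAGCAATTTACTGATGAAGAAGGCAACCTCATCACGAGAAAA
Ank3 57-base exon (chr10:70014190-70014246): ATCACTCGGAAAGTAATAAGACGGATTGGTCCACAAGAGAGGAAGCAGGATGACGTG

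Aligned without gaps at their donors, the 84-base exon of Ank1 and the 84-base exon of Ank3 were identical at 53 of 84 bases (63.1%). Aligned at the acceptor, the first 57 bases of the 66-base exon of Ank1 matched the 57-base exon of Ank3 at 24 (42.1%). The 4 pairings of these Ank1 exons with the other exons of the Ank3 unit were aligned at the donor only. They matched at 28.1 to 37.9% of bases. The pairs were compared after the sequences had been seen, and the identities are given as a description.

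Ank2 showed a second set of exons that moved as a unit. A 92-base exon (chr3:126926803-126926894), a 36-base exon (chr3:126971003-126971038) and a 54-base exon (chr3:126986585-126986638) were all included in 4 counts and all skipped in 10 counts in replicate 1, and all included in 5 and all skipped in 10 in replicate 2. No count mixed them, although the outer exons span 59836 bases of genome. Every count with the 3 exons began upstream of the Ank2-201 first exon, 4 of 9 such counts in replicate 1 and 5 of 10 in replicate 2. None of the 5 counts in each library that began at or after that first exon held them. A 93-base exon (chr3:126930561-126930653) often went with the set but not always. It was included in 7 of 16 informative counts in replicate 1 and 12 of 23 in replicate 2. The 92-base and 93-base exons were both included in 3 and both skipped in 7 of 15 counts in replicate 1. In replicate 2 they were both included in 9 and both skipped in 9 of 23. The remaining counts held either exon alone. The 54-base and the 93-base exon are outside GENCODE M21, and their sequences are not printed because no genome of this build was used. The 36-base and 54-base exons are multiples of 3 bases and the 92-base exon is not, so the 3 exons together do not add a whole number of codons. The annotated exons of the set read as follows on the minus strand in GENCODE M21 on mm10, all letters coding.
Ank2 92-base exon (chr3:126926803-126926894): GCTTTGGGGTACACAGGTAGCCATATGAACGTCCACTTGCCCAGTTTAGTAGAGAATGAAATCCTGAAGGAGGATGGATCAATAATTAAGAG
Ank2 36-base exon (chr3:126971003-126971038): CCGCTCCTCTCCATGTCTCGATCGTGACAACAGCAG

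Pairs of 99-base exons in Ank2 are the length of an ankyrin repeat. The exons at chr3:127029219-127029317 and chr3:127029475-127029573 were both included in 7 and both skipped in 1 of 9 counts in replicate 1, and both included in 5 and both skipped in 4 of 9 in replicate 2. The 99-base exon at chr3:127012673-127012771 was included in 8 of 10 and 9 of 9 informative counts. These counts are too few to order the exons by use.

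The α chain Sptan1 had 3 cassette exons of intermediate or low use. The 15-base exon was included in 16 of 48 informative counts in replicate 1 (33.3%, interval 20.4 to 48.4%) and in 13 of 35 in replicate 2 (37.1%, interval 21.5 to 55.1%). The 60-base exon was included in 7 of 28 in replicate 1 (25%) and 8 of 23 in replicate 2 (34.8%), and the 63-base exon in 2 of 63 (3.17%) and 3 of 44 (6.82%). All keep the frame. In the molecules that covered both of the first pair, the 60-base and the 15-base exon occurred in every combination, with both included in 2 and both skipped in 13 of 28 counts in replicate 1, and both included in 3 and both skipped in 8 of 23 in replicate 2. The exons read as follows on the plus strand in GENCODE M21 on mm10, all letters coding.
Sptan1 60-base exon (chr2:30001100-30001159): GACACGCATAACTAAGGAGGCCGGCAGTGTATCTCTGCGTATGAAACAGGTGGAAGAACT
Sptan1 15-base exon (chr2:30014158-30014172): CTTTCCAAGCTGTTG
Sptan1 63-base exon (chr2:30028644-30028706): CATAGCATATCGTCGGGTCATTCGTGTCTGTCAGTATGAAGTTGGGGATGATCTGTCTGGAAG

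**Figure D4:**
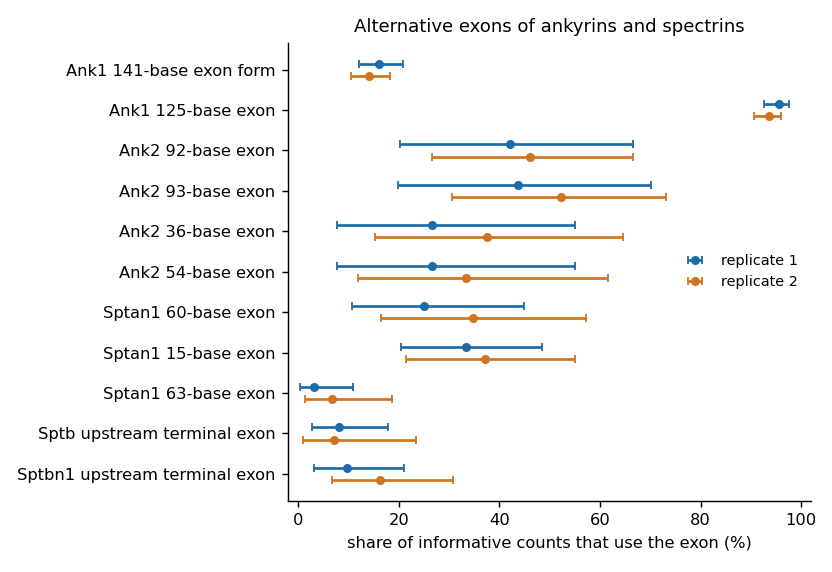
Share of informative counts (%) that use each alternative exon, in replicate 1 and replicate 2, with exact Clopper-Pearson 95% intervals; exons with at least 10 informative counts in each library are shown. The Ank1 125-base exon lies at 95.6 and 93.7%, the Ank2 and the 60- and 15-base Sptan1 exons between 25 and 52.2%, and the upstream terminal exons of the β chains at 16.3% or below.

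The libraries did not differ detectably in these exons. The 4 member exons with at least 20 informative counts in each library did not pass Fisher's exact test (two-sided, Benjamini-Hochberg adjustment), 0 had an unadjusted p under 0.05, and 0.251% of the 3583 cassette exons tested were called. The difference of replicate 1 minus replicate 2 was 1.90 percentage points for the Ank1 125-base exon (adjusted p = 0.947), -9.78 for the 60-base exon of Sptan1 (adjusted p = 0.958), -3.81 for its 15-base exon (adjusted p = 1) and -3.64 for its 63-base exon (adjusted p = 0.949). With 23 to 63 informative counts a library, the spectrin exons could differ by a wide margin and be missed.

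The β chains end in a short or a long carboxy end, and the long one carries a pleckstrin homology domain that binds membrane lipids. In Sptb the short end of erythrocyte β spectrin arises when the exon at chr12:76597726-76597801 is read through into a terminal exon and does not splice on to the 4 last exons of Sptb-201. Most counts took the long end: 57 spliced on and 5 ended in the upstream terminal exon in replicate 1 (8.06%, interval 2.67 to 17.8%), against 26 and 2 in replicate 2 (7.14%, interval 0.877 to 23.5%). In Sptbn1, where the same choice is made at chr11:30109089-30109152, 47 counts spliced on and 5 ended upstream in replicate 1 (9.62%, interval 3.20 to 21.03%), against 36 and 7 in replicate 2 (16.3%, interval 6.81 to 30.7%). The frames hold 2329 codons in Sptb-201 and 2137 in Sptb-202, and 2363 codons in Sptbn1-201 and 2154 in Sptbn1-203. The coding letters that the read-through adds read as follows on the minus strand from GENCODE M21 on mm10, with the stop codon in capitals.
Sptb read-through coding end (chr12:76597657-76597725): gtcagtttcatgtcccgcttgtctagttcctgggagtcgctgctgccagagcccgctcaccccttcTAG
Sptbn1 read-through coding end (chr11:30109002-30109088): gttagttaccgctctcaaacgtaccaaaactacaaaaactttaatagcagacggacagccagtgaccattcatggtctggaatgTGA

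The other genes of the membrane skeleton were led by Tmod1, which caps actin filaments, at 396.5 CPM in replicate 1 and 312.8 in replicate 2. Of the 16 genes of this list, 9 were tested and 2 were called higher in replicate 1, Tmod1 (log2 ratio 0.34, adjusted p = 0.0225) and Epb41, the protein 4.1 that joins spectrin to actin (33 counts, against 12; 1.46, adjusted p = 0.0206; Fisher's exact test). None was called lower, against 4.49% of all tested genes called higher and 5.25% lower, and the list's median log2 ratio was 0.36 beside 0.04 over all genes tested. The further β chain genes Sptbn4 and Sptbn5 each had 1 count in replicate 1 and 0 in replicate 2.

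Among the genes listed around small ankyrin 1 and the sarcoplasmic reticulum, Obsl1, a cytoskeletal linker of muscle, had 112 counts in replicate 1 and 63 in replicate 2 (log2 ratio 0.86, adjusted p = 0.00251, Fisher's exact test). Atp2a1, the fast-muscle calcium pump, had 46378 and 26573 counts, and Sln, a small inhibitor of that pump, 293 and 409 (-0.44, adjusted p = 0.00161). Of the 11 genes, all tested, 4 were called higher in replicate 1 (Obsl1, Atp2a1, Atp2a2, Mybpc1) and Sln lower, with a median log2 ratio of 0.29, beside 4.49% of all tested genes called higher, 5.25% called lower and a median of 0.04. Kctd6, an adaptor of the ubiquitin ligase that acts on small ankyrin 1, had 11 counts in replicate 1 and 25 in replicate 2, and the ligase scaffold Cul3 had 178 and 133.

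Membrane cargo of ankyrins was uneven. Dag1, which encodes dystroglycan, was called higher in replicate 1 (log2 ratio 0.57, adjusted p = 0.00968, Fisher's exact test). The muscle sodium channel gene Scn4a had 26 and 19 counts. Nfasc, cargo of nodes of Ranvier, had 0 counts in both libraries. Of the 15 genes of the list, 11 were tested, 2 were called higher and 0 lower in replicate 1, and the median log2 ratio was 0.57, against 4.49% higher, 5.25% lower and a median of 0.04 over all genes tested. Of 5 proteases that cut spectrin, Capn2, a ubiquitous calpain, was the highest (219 and 201 counts), Capn1 was called higher in replicate 1 (94 counts, against 51; 0.92, adjusted p = 0.00489, Fisher's exact test), and Capn3, the muscle calpain, had 4 and 9 counts.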

How the data were processed

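The authors deposited, for each library, raw read counts per transcript model in TALON format with a model of each transcript's exons on mm10, annotated with GENCODE M21, per the file headers and the readme. The aligner and its version were not given in the sources used here. Identifiers of unannotated models differ between libraries, so models were matched by exons. Gene counts took in every class of model and were scaled to CPM by annotated gene counts (998659 in replicate 1, 1026257 in replicate 2), without spike-ins and unannotated loci. First exons were recognised by a donor that only annotated first exons use. A first exon past the midpoint of the longest annotated chain was called short. A cassette exon was informative in models that held it as an internal exon or spliced over it. Values are means ± SD over 2 libraries, with exact Clopper-Pearson intervals for shares and a floor of 3 counts for 0. No group test is possible. Libraries were compared by two-sided Fisher's exact tests (SciPy 1.17.1, Python 3.11.15) over genes with at least 10 counts in sum and exons with at least 20 counts in each library, with a prior count of 0.5 in log2 ratios; edgeR 4.0.16 and DESeq2 1.42.0 served alternatives. Counting and tests were tested on simulated data. The named genes were the 6 members, their leading models and exons with at least 10 counts, and in each gene list the highest, lowest, absent and called genes. Scn4a, Kctd6, Cul3 and the linked exon choices were picked after their values were seen. The members and lists were chosen with earlier results of these data known. Some listed genes and 1 sequence are not reported here. Sequences came from GENCODE M21 transcripts.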

Additional observations from a re-analysis of the deposited data

Results flagged for a closer look

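Reads on the strand opposite to the members, in models outside the annotation, were not used in the comparisons and exceeded 3 counts in both libraries for 4 genes. Over Ank3 they came to 40 counts in replicate 1 and 35 in replicate 2, more than the 20 and 10 counts of Ank3 itself, and all 16 and 13 models had a single exon. Over Ank2 there were 22 and 33 such counts, all on single-exon models, beside 24 and 32 counts of the gene. Over Sptbn1 there were 11 and 21, of which 1 in each library overlapped an exon of the gene. Over Sptan1 there were 7 and 8. Sptb had 0 and 0, and Ank1 had 0 and 1. What these models are was not tested.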

How the results depend on the processing

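No paired analysis was possible because the study has 1 group. In 116 recomputed values, 102 kept their direction and side of the threshold or moved by less than the spread between libraries, and none reversed. Some of the 102 could not have moved. A value with 1 library left out always lies within the SD of the 2 libraries. The shares of short first exons in Ank2, Sptan1, Sptb and Sptbn1 were fixed by the annotation and the rule on first-exon donors, except when sorted by 5′ position alone. The 102 therefore overstates how far the results were tried. No member tested was called under any gene setting, with Ank3 not tested at a minimum of 50 counts or with Known, NIC and NNC transcripts only (TMM, DESeq2 size factors, other count minimums, Known, NIC and NNC transcripts only, a preset BCV, another prior count). The edgeR exact test with a preset BCV of 0.2 called 56 genes, against 1074 with counting error only. With only Known, NIC and NNC transcripts, mean CPM fell to 18.6 for Ank2, 5.14 for Ank3, 19.3 for Sptan1, 13.1 for Sptb and 21.5 for Sptbn1, by construction, since incomplete chains and unspliced models are left out, and 18 first exons and 14 cassette exons were called, against 7 and 9. Sorted by 5′ position alone, the share called short was 99.9% for Ank1, 37.5% for Ank2, 50% for Ank3, 44.9% for Sptan1, 63.1% for Sptb and 29.9% for Sptbn1, since truncated reads then count as short. In the other 5 genes at most 19 reads a library began at a first exon, which limits the precision of their first exon use.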
